A study of Arabidopsis thaliana with 10 samples.

Results

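The line labelled UBP13oe, an overexpressor of the deubiquitinase gene UBP13, was set against the line labelled CRY2oe, an overexpressor of the blue-light receptor gene CRY2, with no wild-type library in the contrast. The 4 libraries compared were 2 of UBP13oe and 2 of CRY2oe, out of 10 in the series. All were poly(A) RNA of whole Arabidopsis thaliana seedlings of the Columbia ecotype, aged 4 days and kept in steady blue light at 1 µmol m-2 s-1, as labelled. The other 6 libraries, 2 each of ubp12ubp13, cry2-1 and WT, entered the fit only for its estimate of the spread. Genes were matched on their identifier, failed estimates were set missing, and a gene was kept at 1 FPKM (fragments scaled to transcript length and library size) or more in at least 2 of the 10 libraries. This left 19956 genes to compare of 33557 in the files. The 2 libraries of a genotype are labelled as biological replicates, and the sources used here do not say whether they came from separate sowings. The p-values therefore measure only the spread between these libraries. The sources used here do not give the promoters of the transgenes, the number of independent lines or the background in which each line was made.

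CRY2 is a flavin-binding receptor that forms oligomers in blue light, restrains the COP1-SPA ubiquitin ligase and binds transcription factors such as CIB1 and the phytochrome-interacting factors (PIFs). The light-activated receptor is itself ubiquitinated, by COP1 and by the LRB proteins, and degraded. UBP12 and UBP13 are closely related proteases that remove ubiquitin from proteins, and the title of the series links them to the stability of CRY2 and to growth. In seedlings, cryptochrome signalling is known for short hypocotyls, for flavonoid and chlorophyll accumulation, and later for the timing of flowering.

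Within a genotype the libraries were alike. The correlation of log2(FPKM + 1) between replicates was 0.989 in UBP13oe and 0.987 in CRY2oe, and between the genotypes it was 0.967 to 0.970 over the genes kept. Depth was estimated at 31.8 and 31.1 M fragments in UBP13oe and 28.0 and 28.4 M fragments in CRY2oe, where 3 fragments correspond to 0.0944 to 0.107 FPKM for a transcript of 1 kb. Genes of the plastid genome held 9.06% and 9.58% of all FPKM in UBP13oe, against 18.0% and 17.9% in CRY2oe. Leaf genes such as CAB1 and root genes such as CASP1 were both present in every library compared, as a whole seedling would give. Below, a pair of values for a genotype is its replicate 1 and replicate 2.

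The overexpressed genes were checked first. CRY2 (chromosome 1, 1185550 to 1188517 on TAIR10) had 96.5 and 96.2 FPKM in UBP13oe, against 3923 and 3808 FPKM in CRY2oe. The libraries did not overlap, and the log2 fold change of UBP13oe over CRY2oe was -5.31 ± 0.05 (SE; limma, adjusted p = 4.11e-10). UBP13 (chromosome 3, 3761388 to 3770563) had 69.0 and 66.1 FPKM in UBP13oe, against 32.5 and 34.3 FPKM in CRY2oe, a log2 fold change of 0.99 ± 0.05 (adjusted p = 1.21e-05). Both UBP13oe libraries stood above both CRY2oe libraries for UBP13, by far less than CRY2oe stood above UBP13oe for CRY2. The paralog UBP12 was also higher in UBP13oe, with 44.4 and 46.6 FPKM in UBP13oe, against 35.0 and 33.2 FPKM in CRY2oe and a log2 fold change of 0.41 ± 0.05 (adjusted p = 7.74e-04). Its estimate failed in 1 ubp12ubp13 library, which the fit treated as missing. CRY1, the other main blue-light receptor of the seedling, had 85.7 and 82.2 FPKM in UBP13oe, against 76.4 and 75.4 FPKM in CRY2oe. Its small difference of 0.14 was called at an adjusted p of 0.0478 and was lost on rescaling (adjusted p = 0.470) and without any of several single libraries (adjusted p up to 0.212).

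Beside CRY2 on chromosome 1, 3 gene models were among the largest differences of all. c-NAD-MDH1 (AT1G04410, chromosome 1, 1189078 to 1191412), a malate dehydrogenase gene and the next model after CRY2, had 469 and 469 FPKM in UBP13oe, against 0.114 and 0.0564 FPKM in CRY2oe. AT1G04420 (1191608 to 1193884), an oxidoreductase gene, had 35.6 and 39.0 FPKM in UBP13oe and was listed at 0 in both CRY2oe libraries. These are levels of nearly nothing in CRY2oe, so no fold change is given; the adjusted p was 3.29e-12 and 2.80e-09. AT1G04425 (1194187 to 1196889), annotated as another RNA, went the other way with 2.70 and 2.22 FPKM in UBP13oe, against 57.8 and 51.4 FPKM in CRY2oe and a log2 fold change of -4.01 ± 0.16 (adjusted p = 6.92e-06). The cry2-1 libraries also had next to no RNA of c-NAD-MDH1, at 0 and 0 FPKM, and of AT1G04420, at 0 and 0 FPKM. In WT c-NAD-MDH1 had 435 and 443 FPKM. So RNA of these genes was missing both in CRY2oe, where CRY2 was highest, and in cry2-1, where CRY2 had 0 and 0.0187 FPKM. AT1G04390, on the other side of CRY2, had 4.503 and 4.95 FPKM in UBP13oe, against 4.99 and 4.55 FPKM in CRY2oe and was not called (adjusted p = 0.946). Of the 5 models on each side of UBP13, those called were AT3G11930 at -0.27 (adjusted p = 9.76e-04) and ANT1 at -0.21 (adjusted p = 0.0391).

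**Figure D1:**
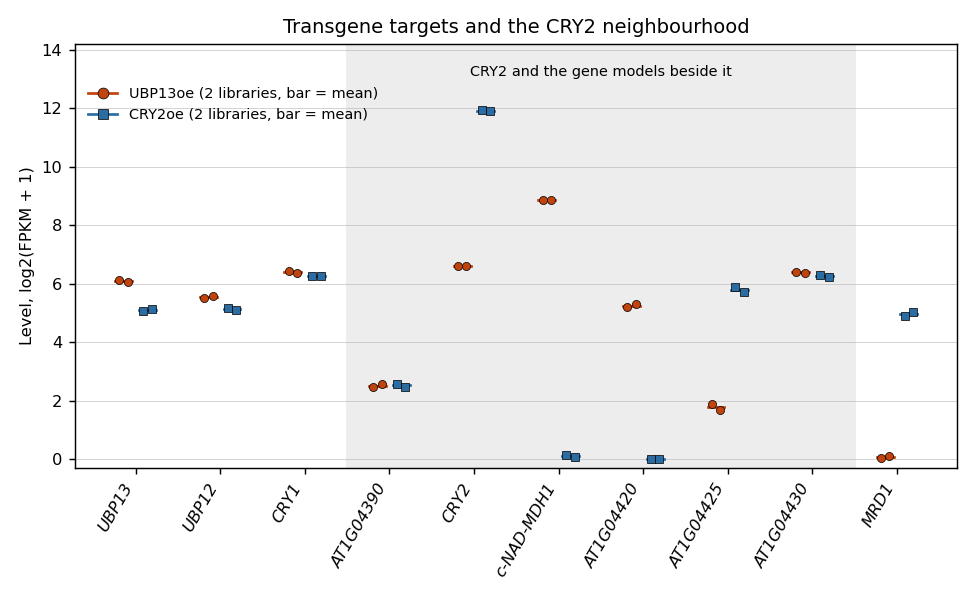
Levels of the overexpressed genes, their relatives and the gene models beside CRY2, as log2(FPKM + 1), in each of the 2 UBP13oe and 2 CRY2oe libraries, with a bar at each mean. CRY2 and AT1G04425 stand higher in CRY2oe, UBP13 and UBP12 in UBP13oe, and c-NAD-MDH1 and AT1G04420 are near 0 in CRY2oe.

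The genotypes differed across much of the transcriptome. At an adjusted p of 0.05, 7058 of 19956 genes were called (35.4%), of which 5077 were higher in UBP13oe (25.4%) and 1981 lower (9.93%). Most differences were small, and 370 genes were called higher and 208 lower by more than 2-fold. The split between directions depended on the scaling. After rescaling the libraries by the median of ratios, 3473 genes were called higher and 3207 lower (16.1%), so that 52.0% of calls were higher in place of 71.9%. No gene called in both ways changed direction, and 3473 higher and 1981 lower calls were shared by both. The median over all genes was 0.08 on the log2 scale and -0.01 after rescaling. Leaving out UBP13oe replicate 2 left 4359 calls, leaving out CRY2oe replicate 2 left 4613, and 3625 calls held without each of the 4 libraries in turn. Both UBP13oe libraries lay above both CRY2oe libraries for 47.8% of genes and below both for 24.2%. List members named below were led by the smallest adjusted p, so a lack of overlap in them adds no further support. The main counts of each list below are read against the shares of 25.4% and 9.93%. Counts after rescaling are read against the 3473 higher and 3207 lower calls among all 19956 genes in that setting. Calls over all genes also fell without any of the 4 libraries. A change in a list's counts after rescaling or without a library is therefore not by itself particular to that list.

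**Figure D2:**
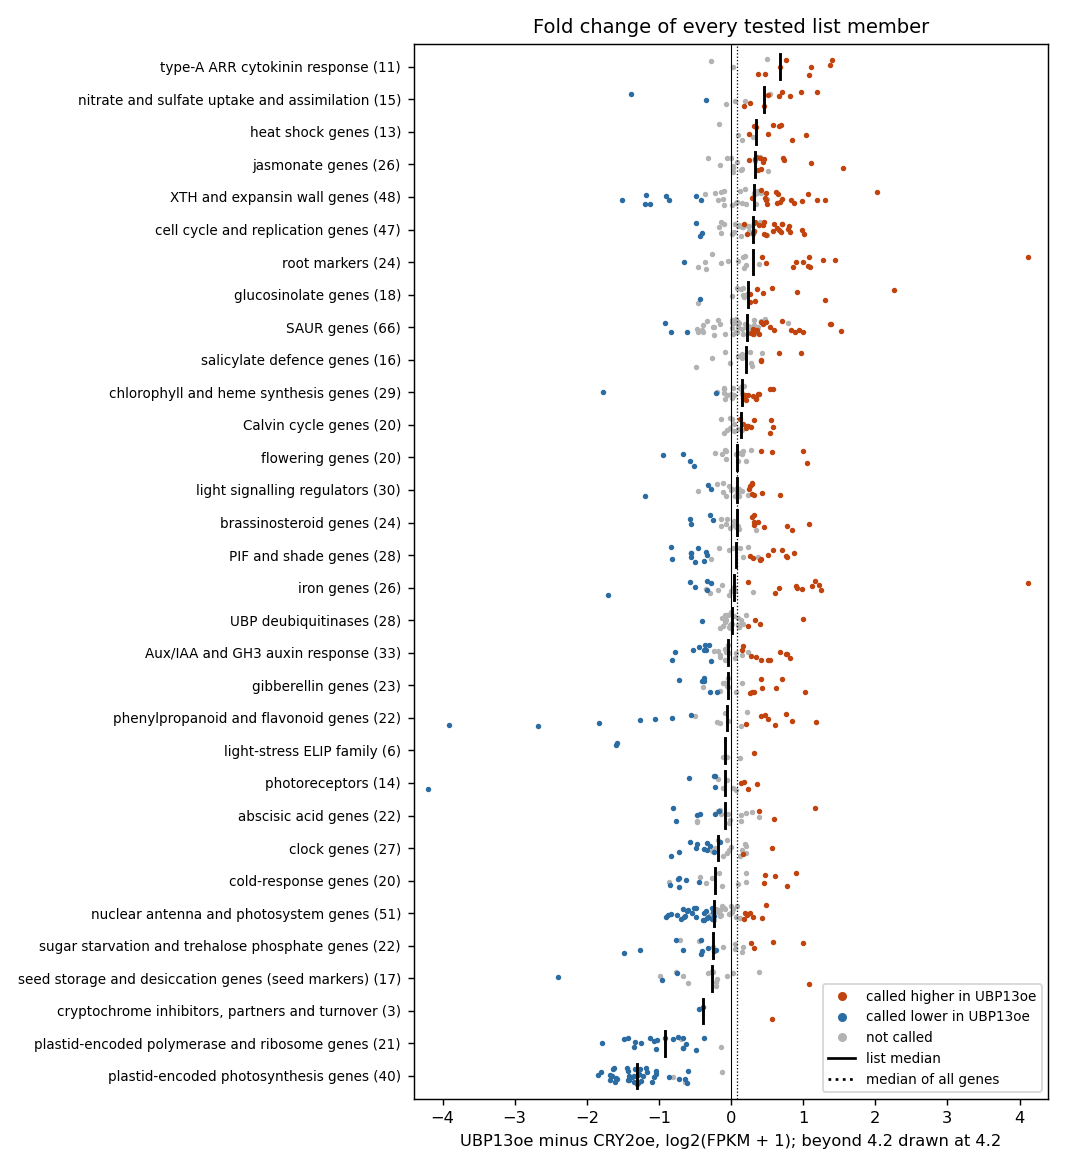
Fold change of UBP13oe over CRY2oe on the log2(FPKM + 1) scale for every tested member of each gene list, with the number tested in brackets, coloured by call, a thick bar at the list's median and a dotted line at the median of all genes. The lists with the lowest medians are the 2 of plastid-encoded genes, at -1.30 and -0.92, and that with the highest is the type-A response regulator list, at 0.67.

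Single genes outside the CRY2 region were ranked if called, of 300 bp or more and at least 5 FPKM in the higher genotype. The ranking also required that the libraries of the genotypes did not overlap. By these limits the largest rises in UBP13oe were for IRT1 and FRO5. IRT1 (chromosome 4, 10707426 to 10709015), the iron transporter of the root epidermis, had 12.4 and 21.4 FPKM in UBP13oe and was listed at 0 in both CRY2oe libraries (adjusted p = 1.22e-05). FRO5, a member of the ferric reductase oxidase family, had 19.1 and 22.4 FPKM in UBP13oe, against 1.11 and 0.794 FPKM in CRY2oe, a log2 fold change of 3.48 ± 0.23 (adjusted p = 3.48e-05). The lack of overlap between the genotypes in these genes was a condition of the ranking and not a result. AT1G47395 came next, with 10.5 and 11.6 FPKM in UBP13oe, against 0.868 and 0.428 FPKM in CRY2oe and 2.88 ± 0.20 (adjusted p = 4.12e-05) on the log2 scale. It was followed by the peroxidase family gene AT1G49570 with 9.45 and 10.4 FPKM in UBP13oe, against 0.583 and 0.671 FPKM in CRY2oe and 2.74 ± 0.23 (adjusted p = 1.12e-04), and by the lectin family gene AT1G52000 with 12.1 and 21.6 FPKM in UBP13oe, against 1.64 and 1.57 FPKM in CRY2oe and 2.72 ± 0.22 (adjusted p = 9.51e-05). COPT2, a copper transporter, had 37.3 and 38.5 FPKM in UBP13oe, against 5.53 and 5.88 FPKM in CRY2oe, a log2 fold change of 2.54 ± 0.13 (adjusted p = 1.52e-05). All 4 of these were higher in both UBP13oe libraries, as the ranking required. The other large rises were for AT4G01390, AT5G22580, AT5G38005 and AT5G05960, at log2 fold changes of 2.302 to 2.49, and AT5G05960 overlaps another locus.

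By the same limits the largest falls outside that region included MRD1, chalcone synthase and FLS1, the last 2 described with the flavonoid genes. MRD1 (chromosome 1, 19963047 to 19964712) was next to absent in UBP13oe, with 0.0364 and 0.0897 FPKM in UBP13oe, against 28.9 and 32.02 FPKM in CRY2oe (adjusted p = 1.24e-07). It overlaps another locus, so its fragments may belong to either, and no fold change is given against so low a level. Like the loss of RNA beside CRY2, its high level was shared with cry2-1, at 31.8 and 29.8 FPKM. BETA-TIP, an aquaporin of the storage vacuole, had 0.399 and 0.304 FPKM in UBP13oe, against 6.10 and 6.71 FPKM in CRY2oe, a log2 fold change of -2.45 ± 0.28 (adjusted p = 4.35e-04). LEA18, a late embryogenesis abundant protein gene, had 9.53 and 5.01 FPKM in UBP13oe, against 60.2 and 27.8 FPKM in CRY2oe, and its replicates lay far apart in both genotypes (log2 fold change -2.40 ± 0.38 (adjusted p = 0.00196)). AT4G25580 had 15.5 and 10.3 FPKM in UBP13oe, against 71.3 and 73.3 FPKM in CRY2oe, BCAT-2, a branched-chain amino acid transaminase gene, had 93.4 and 84.3 FPKM in UBP13oe, against 366 and 354 FPKM in CRY2oe, and both were called, at log2 fold changes of -2.42 and -2.01. The glycine-rich protein gene AT2G05510, AT4G36850 and the mitochondrial ORF106F were also among the largest falls, at -3.67, -2.06 and -2.09. In FPKM rather than log2, the largest called rises were for the aquaporin gene TIP2, AT1G12080 and AT2G45180, and TIP2 had 5002 and 4592 FPKM in UBP13oe, against 3010.5 and 3059.8 FPKM in CRY2oe (log2 fold change 0.66, adjusted p = 7.61e-04).

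Flavonoids are made from phenylalanine in an early, shared phenylpropanoid stage (PAL, C4H, 4CL), after which chalcone synthase (CHS) commits carbon to the flavonoid ring. Of 22 tested members of the list, 8 were called higher and 7 lower in UBP13oe, and 7 were not called. Those that rose were PAL1, PAL2, PAL4, C4H, 4CL1, 4CL2, OMT1 and UGT78D1, and those that fell were CHS, CHIL, TT5, F3H, TT7, FLS1 and MYB12, the activator of flavonol genes. This reading by stage was made after the calls were seen and was not tested. The median of the list was -0.06, against 0.08 over all genes. After rescaling, 6 were called higher and 10 lower.

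The 4 promoter windows printed here belong to genes that fell and that hold a G-box, the hexamer CACGTG, which is the textbook site of bZIP and bHLH regulators of light-responsive genes. Each window runs from 250 bases before to 50 after the RefSeq gene start on TAIR10.1 and is written on the gene's strand, with the G-box in capitals.
CHS (chr5:4488226-4488525, plus strand): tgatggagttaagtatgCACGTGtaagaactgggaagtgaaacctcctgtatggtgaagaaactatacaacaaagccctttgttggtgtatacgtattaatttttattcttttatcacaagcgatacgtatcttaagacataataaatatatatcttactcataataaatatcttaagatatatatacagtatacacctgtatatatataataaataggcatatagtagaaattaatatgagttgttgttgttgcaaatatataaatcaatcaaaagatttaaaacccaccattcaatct
F3H (chr3:19024942-19025241, plus strand): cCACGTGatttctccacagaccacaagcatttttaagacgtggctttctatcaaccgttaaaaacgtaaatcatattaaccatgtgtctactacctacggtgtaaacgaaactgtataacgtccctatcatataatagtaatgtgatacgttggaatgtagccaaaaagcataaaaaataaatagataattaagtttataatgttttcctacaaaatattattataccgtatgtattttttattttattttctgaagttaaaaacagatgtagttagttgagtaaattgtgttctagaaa
CHIL (chr5:1563036-1563335, plus strand): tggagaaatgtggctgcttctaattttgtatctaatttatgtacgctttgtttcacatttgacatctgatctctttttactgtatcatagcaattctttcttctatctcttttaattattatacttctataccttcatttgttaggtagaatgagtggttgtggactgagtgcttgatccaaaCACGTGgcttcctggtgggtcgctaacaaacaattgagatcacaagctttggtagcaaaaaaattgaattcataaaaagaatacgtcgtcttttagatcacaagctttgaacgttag
MYB12 (chr2:19476076-19476375, plus strand): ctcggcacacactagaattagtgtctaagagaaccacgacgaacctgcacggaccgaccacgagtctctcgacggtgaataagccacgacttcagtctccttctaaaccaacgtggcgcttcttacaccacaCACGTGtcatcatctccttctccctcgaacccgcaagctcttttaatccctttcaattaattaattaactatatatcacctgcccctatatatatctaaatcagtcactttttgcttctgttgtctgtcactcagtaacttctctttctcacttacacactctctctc
The hexamer is its own reverse complement, so a match counts for both strands. It was found in 5 of the 7 windows of flavonoid genes called lower (CHS, F3H, CHIL, TT5 and MYB12) and in 1 of 8 called higher (PAL4), against 7.68% of the 27443 windows of protein-coding genes. It lay 233 bases before the start in CHS, 249 in F3H, 67 in CHIL and 118 in MYB12. The G-box is 1 of 5 motifs that were counted in every list, and it and the evening element used below were chosen for display after the counts were seen. In the same flavonoid windows the AC element ACCTAC, on either strand, was in 1 of 7 lower and 1 of 8 higher, against 5.45% of all windows, and the core ACGT, which lies inside the G-box, in 6 of 7 and 5 of 8, against 49.9%. A match is a run of letters and was not tested for binding.

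CHS (chromosome 5, 4488688 to 4490264 in the files) had 3.85 and 5.13 FPKM in UBP13oe, against 76.1 and 86.2 FPKM in CRY2oe. Both UBP13oe libraries were far below both CRY2oe libraries, with a log2 fold change of -3.91 ± 0.19 (adjusted p = 1.21e-05). The CHS model overlaps another locus in the files, so part of its fragments may come from there, and the same holds for F3H. FLS1, flavonol synthase, had 2.34 and 2.60 FPKM in UBP13oe, against 20.9 and 21.4 FPKM in CRY2oe, a log2 fold change of -2.68 ± 0.20 (adjusted p = 5.65e-05). F3H, which hydroxylates the flavanone, had 6.19 and 6.79 FPKM in UBP13oe, against 24.3 and 26.8 FPKM in CRY2oe and -1.82 ± 0.15 (adjusted p = 9.39e-05) on the log2 scale. The order of the genotypes was the same in all 3, with no overlap. CHIL, a helper of chalcone isomerization, had 11.9 and 12.3 FPKM in UBP13oe, against 26.6 and 25.5 FPKM in CRY2oe, and its log2 fold change was -1.05 ± 0.09 (adjusted p = 1.02e-04). TT7, the hydroxylase of the B ring, was low throughout, with 0.592 and 0.8805 FPKM in UBP13oe, against 2.80 and 3.54 FPKM in CRY2oe and -1.26 ± 0.14 (adjusted p = 3.71e-04). The fall was smallest for chalcone isomerase itself, TT5, with 13.2 and 12.9 FPKM in UBP13oe, against 19.4 and 20.0 FPKM in CRY2oe and -0.56 ± 0.10 (adjusted p = 0.00424). MYB12 had 2.89 and 2.75 FPKM in UBP13oe, against 5.09 and 6.50 FPKM in CRY2oe, a log2 fold change of -0.82 ± 0.18 (adjusted p = 0.00855), and its call was lost without 1 of the 4 libraries (adjusted p up to 0.0629).

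Among genes of the entry of the pathway, PAL2, which deaminates phenylalanine, had 46.7 and 49.6 FPKM in UBP13oe, against 21.0 and 20.5 FPKM in CRY2oe, a log2 fold change of 1.18 ± 0.07 (adjusted p = 2.45e-05). PAL4 had 25.3 and 26.5 FPKM in UBP13oe, against 13.9 and 14.02 FPKM in CRY2oe and 0.84 ± 0.08 (adjusted p = 2.06e-04) on the log2 scale. 4CL1, which makes the coenzyme A ester, had 52.7 and 57.0 FPKM in UBP13oe, against 31.8 and 31.9 FPKM in CRY2oe and 0.76 ± 0.09 (adjusted p = 3.81e-04). All 3 were higher in both UBP13oe libraries. OMT1, a methyltransferase of phenylpropanoids and flavonols, rose by 0.51 and the flavonol rhamnosyltransferase gene UGT78D1 by 0.62, with adjusted p of 7.59e-04 and 0.00249. The rises of PAL1 (0.41) and C4H (0.20) were not called after rescaling. UGT78D2, with 18.0 and 19.2 FPKM in UBP13oe, against 19.6 and 22.3 FPKM in CRY2oe, was not called (adjusted p = 0.170). Anthocyanin genes were too low to test: DFR had 0.475 and 0.340 FPKM in UBP13oe and 0.475 and 0.406 FPKM in CRY2oe, and LDOX, TT8 and MYB75 stayed under 0.1 FPKM in all 4 libraries.

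**Figure D3:**
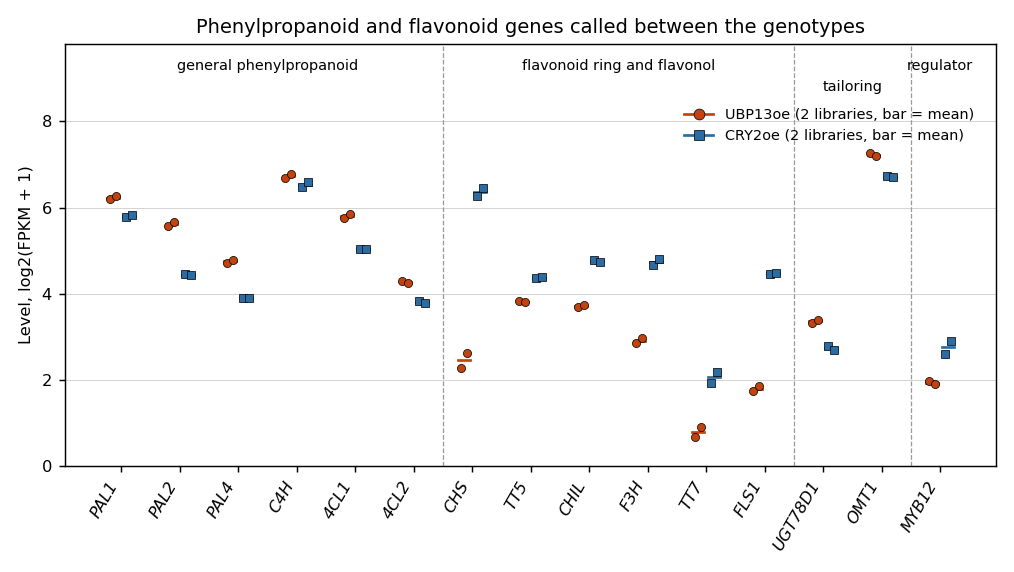
Levels of the 15 phenylpropanoid and flavonoid genes called between the genotypes, as log2(FPKM + 1), in the order of the pathway, with each library as a point and a bar at each mean. The 6 early genes stand higher in UBP13oe, the 6 from CHS to FLS1 stand lower, the 2 tailoring genes higher and MYB12 lower.

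Nearly all photosynthesis genes held by the plastid genome were lower in UBP13oe, while nuclear ones stood on both sides. Of 40 tested plastid-encoded photosynthesis genes, 37 were called lower in UBP13oe and 0 higher, with a median of -1.30. At an unadjusted p under 0.05 there were 39 lower and again 0 higher, against 13.5% lower and 31.9% higher over all genes at that threshold, the shares to which the unadjusted counts below compare. Leaving out any of the 4 libraries left 33 to 35 lower. RBCL, the large subunit of Rubisco, had 192 and 228 FPKM in UBP13oe, against 643 and 624 FPKM in CRY2oe, a log2 fold change of -1.59 ± 0.09 (adjusted p = 2.05e-05). PSBA, the D1 protein of photosystem II, had 115 and 115 FPKM in UBP13oe, against 282 and 337 FPKM in CRY2oe and -1.41 ± 0.14 (adjusted p = 2.17e-04) on the log2 scale. PSAA, of the photosystem I core, had 93.2 and 142 FPKM in UBP13oe, against 413 and 419 FPKM in CRY2oe and -1.85 ± 0.22 (adjusted p = 5.10e-04). In each of these both UBP13oe libraries were below both CRY2oe libraries. The 3 not called were ATPE, ATPB and PSAJ, at -0.80, -0.63 and -0.12. Among those called, the smallest falls were in subunits of the NDH complex, with PSBG (now ndhK) at -0.60, NDHH at -0.61, NDHJ at -0.64 and NDHC at -0.72.

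The expression machinery of the plastid moved the same way, with 19 of 21 tested polymerase and ribosomal protein genes lower and 0 higher, at a median of -0.92, and 20 and 0 at an unadjusted p under 0.05. RPOB, a core subunit of the plastid's own RNA polymerase, had 8.49 and 11.1 FPKM in UBP13oe, against 23.6 and 25.5 FPKM in CRY2oe, a log2 fold change of -1.25 ± 0.16 (adjusted p = 7.20e-04). RPS14, a ribosomal protein gene, had 253 and 397 FPKM in UBP13oe, against 1115 and 1078 FPKM in CRY2oe and -1.79 ± 0.24 (adjusted p = 9.42e-04) on the log2 scale. Without UBP13oe replicate 1 the count of lower calls in this list was 9, and without CRY2oe replicate 2 it was 12. The libraries were selected for poly(A), a tail that plastid transcripts mostly lack, so the plastid level measures what passed that selection. The plastid share of FPKM given above was lower in UBP13oe as these lists were, and was 16.9% and 17.59% in cry2-1, 16.2% and 15.5% in ubp12ubp13 and 8.57% and 11.2% in WT. That share sums all plastid genes, those of these lists included, so it is not a separate observation. Calls among nuclear genes rescaled to their own sum are given in the section on processing. What set the share was not tested.

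Of 51 tested nuclear genes of the light-harvesting antennae and photosystems, 24 were called lower and 7 higher, with a median of -0.24. After rescaling 33 were lower and 3 higher, and without CRY2oe replicate 1 the lower calls were 15. Leaving out any of the 4 libraries left 3 to 5 higher. LHCB4.2, a minor antenna protein, had 686 and 627 FPKM in UBP13oe, against 1183 and 1150.4 FPKM in CRY2oe, a log2 fold change of -0.83 ± 0.10 (adjusted p = 4.91e-04). LHCB3 had 1459.9 and 1452 FPKM in UBP13oe, against 2795 and 2538 FPKM in CRY2oe and -0.87 ± 0.10 (adjusted p = 5.19e-04) on the log2 scale. LHCA3, of the photosystem I antenna, had 1511 and 1531 FPKM in UBP13oe, against 2443 and 2287 FPKM in CRY2oe and -0.64 ± 0.07 (adjusted p = 3.64e-04). The genotypes did not overlap in any of these, and LHCB4.2 and LHCB3 overlap another locus, as do LHB1B2 and FNR1 below. LHB1B2 and CAB1, both of the main antenna, had the largest falls in FPKM among called genes of 300 bp or more, with 11193 and 11092 FPKM in UBP13oe, against 17775 and 17188 FPKM in CRY2oe for LHB1B2 and log2 fold changes of -0.65 and -0.38. CAB1, CAB2, CAB3 and the LHB1B genes are close to identical in sequence, and how their fragments were shared out is not known, so single values are uncertain. The exceptions included LHCA6 at 0.48, the quenching protein gene NPQ4 at 0.43 and the ferredoxin reductase gene FNR1 at 0.31, all higher in UBP13oe and called after rescaling as well.

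**Figure D4:**
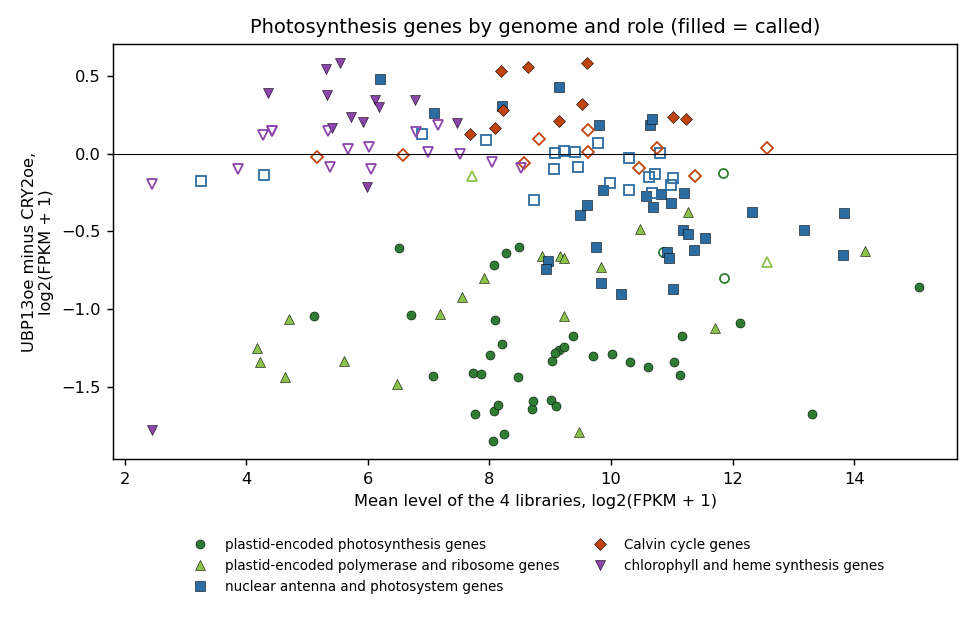
Fold change of UBP13oe over CRY2oe on the log2(FPKM + 1) scale against the mean level of the 4 libraries on the same scale, for photosynthesis genes by genome and role, filled where called. Plastid-encoded genes lie between -1.85 and -0.12, most nuclear antenna and photosystem genes below 0, and called Calvin cycle genes above 0.

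In the soluble side of photosynthesis, of 20 Calvin cycle genes, 10 were called higher and 0 lower, at a median of 0.14, and 12 and 0 at an unadjusted p under 0.05. Rescaling left 5 higher and 1 lower, and leaving out any of the 4 libraries left 6 higher. FBA1, a plastid aldolase, had 349 and 339 FPKM in UBP13oe, against 238 and 236 FPKM in CRY2oe, a log2 fold change of 0.53 ± 0.06 (adjusted p = 4.26e-04). CP12-2, which ties Calvin cycle enzymes together in the dark, had 468 and 473 FPKM in UBP13oe, against 311 and 328 FPKM in CRY2oe and 0.56 ± 0.08 (adjusted p = 0.00120) on the log2 scale. RBCS1B, a small subunit of Rubisco with near-identical copies, had 891 and 968 FPKM in UBP13oe, against 589.8 and 651 FPKM in CRY2oe and 0.58 ± 0.07 (adjusted p = 4.50e-04), whereas RBCS1A at 0.04 was not called (adjusted p = 0.751). So, in RNA that passed poly(A) selection, the plastid-encoded RBCL was lower and the nuclear RBCS1B higher in UBP13oe. RBCS1B is a single member of a set of near-identical copies, so its value is uncertain.

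Among chlorophyll and heme synthesis genes, 11 of 29 were higher and 2 lower at a median of 0.15. After rescaling 6 were higher and 4 lower, shares close to those of all genes in that setting, at a median of 0.055. Leaving out any of the 4 libraries left 7 higher. PORC, which reduces protochlorophyllide in the light, had 55.3 and 54.6 FPKM in UBP13oe, against 37.1 and 35.5 FPKM in CRY2oe, a log2 fold change of 0.58 ± 0.04 (adjusted p = 4.83e-05). GSA1, of the early steps, had 44.6 and 47.2 FPKM in UBP13oe, against 29.7 and 32.7 FPKM in CRY2oe and 0.54 ± 0.06 (adjusted p = 3.25e-04) on the log2 scale, and the magnesium chelatase subunit CHLI1 rose by 0.34 (adjusted p = 7.32e-04). PORA, the reductase of dark-grown seedlings, had 1.204 and 1.19 FPKM in UBP13oe, against 12.1 and 3.304 FPKM in CRY2oe, with a wide spread in CRY2oe and a call that was lost without 1 library (adjusted p = 0.0254, and up to 0.118). FLU, which brakes the pathway, fell by 0.21 (adjusted p = 0.00479).

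Of 6 members of the ELIP family, which bind chlorophyll under light stress, 2 fell and 1 rose. ELIP1 had 2.14 and 2.79 FPKM in UBP13oe, against 8.56 and 10.4 FPKM in CRY2oe, a log2 fold change of -1.60 ± 0.22 (adjusted p = 9.96e-04). ELIP2 had 2.25 and 2.18 FPKM in UBP13oe, against 9.38 and 7.99 FPKM in CRY2oe and -1.59 ± 0.18 (adjusted p = 4.22e-04) on the log2 scale. Both lay well below the CRY2oe range in both UBP13oe libraries and fell by more than any nuclear antenna gene. LIL3:1, which anchors chlorophyll synthesis enzymes, rose by 0.32 (adjusted p = 0.00191).

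Growth genes did not move as a block. PIFs are bHLH factors that promote elongation, and the list of PIF and shade genes had 10 of 28 called higher and 10 lower, at a median of 0.07. PIF3 at -0.38 and PIF5 at -0.35 were lower and PIF1 at 0.27 higher, with adjusted p of 0.00851, 0.00742 and 0.00809. HFR1, a non-DNA-binding partner that restrains PIFs, had 147 and 145 FPKM in UBP13oe, against 118 and 115 FPKM in CRY2oe, a log2 fold change of 0.32 ± 0.05 (adjusted p = 0.00234). IBH1, a repressor of growth, had 31.4 and 31.9 FPKM in UBP13oe, against 19.3 and 18.6 FPKM in CRY2oe and 0.71 ± 0.06 (adjusted p = 8.88e-05) on the log2 scale. The shade-marker transcription factors HAT1, HAT2 and HAT3 fell, by 0.34, 0.55 and 0.55. PIL1 rose by 0.58 and PRE1, a growth-promoting atypical bHLH, by 0.87. PRE6, of the same family, had 9.34 and 8.39 FPKM in UBP13oe, against 15.0 and 18.15 FPKM in CRY2oe and fell by 0.83 (adjusted p = 4.24e-04). Lower calls in this list numbered 5 without CRY2oe replicate 1 and 4 without UBP13oe replicate 2.

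Auxin is made by TAA1 and YUC enzymes, its early response genes include the Aux/IAA repressors and GH3 conjugating enzymes, and SAUR proteins drive acid growth. TAA1 fell by 0.55 and YUC8 by 0.45 (adjusted p = 0.00834 and 0.0262). Among 33 Aux/IAA and GH3 genes, 11 were higher and 9 lower at a median of -0.04, and 8 and 11 after rescaling. IAA3 had 97.1 and 88.8 FPKM in UBP13oe, against 54.3 and 50.6 FPKM in CRY2oe, a log2 fold change of 0.81 ± 0.07 (adjusted p = 1.19e-04). IAA17 had 114 and 109 FPKM in UBP13oe, against 69.7 and 68.0 FPKM in CRY2oe and 0.69 ± 0.08 (adjusted p = 4.52e-04) on the log2 scale. IAA29, a shade-induced member, went the other way with 23.1 and 23.2 FPKM in UBP13oe, against 43.6 and 39.4 FPKM in CRY2oe and -0.82 ± 0.16 (adjusted p = 0.00546). The family was thus divided, with IAA19 and IAA12 also higher and IAA20 and IAA2 also lower.

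Among SAUR genes, 19 of 66 tested were called higher, a share close to the 25.4% of all genes, and 3 lower, at a median of 0.22. After rescaling 13 were higher and 4 lower, and 12 were higher without CRY2oe replicate 2. SAUR57 had 87.4 and 81.3 FPKM in UBP13oe, against 30.5 and 26.6 FPKM in CRY2oe, a log2 fold change of 1.53 ± 0.18 (adjusted p = 4.76e-04). SAUR14 had 66.4 and 68.2 FPKM in UBP13oe, against 30.8 and 38.5 FPKM in CRY2oe and 0.95 ± 0.11 (adjusted p = 4.25e-04) on the log2 scale, and SAUR16 had 43.1 and 40.8 FPKM in UBP13oe, against 24.2 and 22.2 FPKM in CRY2oe and 0.83 ± 0.05 (adjusted p = 3.76e-05). No library of UBP13oe overlapped one of CRY2oe in these. SAUR37 was among those that fell, with 6.38 and 6.20 FPKM in UBP13oe, against 10.6 and 13.6 FPKM in CRY2oe and -0.83 ± 0.16 (adjusted p = 0.00416). SAUR genes are short and lie in arrays of near-identical copies, so single values are uncertain.

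Of 48 XTH and expansin genes, which loosen the cell wall, 18 were higher and 8 lower at a median of 0.32, with the same counts after rescaling. XTH4, the most abundant of those called, had 2127 and 2128 FPKM in UBP13oe, against 1103 and 1042 FPKM in CRY2oe, a log2 fold change of 0.99 ± 0.07 (adjusted p = 5.90e-05). XTH17 had 128 and 116 FPKM in UBP13oe, against 27.02 and 31.2 FPKM in CRY2oe and 2.03 ± 0.11 (adjusted p = 1.45e-05) on the log2 scale, the largest rise of the list. EXPA5 had 47.1 and 59.6 FPKM in UBP13oe, against 25.5 and 24.1 FPKM in CRY2oe and 1.07 ± 0.10 (adjusted p = 1.48e-04). XTH15 fell, with 288 and 293 FPKM in UBP13oe, against 937 and 737 FPKM in CRY2oe and -1.51 ± 0.15 (adjusted p = 2.30e-04), and so did EXPA2, EXPA16 and XTH25, at -1.19, -1.18 and -1.13.

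Brassinosteroids act through BES1 and BZR1, and 9 of 24 genes of the list were higher and 4 lower, at a median of 0.08 and with 7 and 6 after rescaling. Lower calls numbered 2 without CRY2oe replicate 2 or UBP13oe replicate 2. BES1 had 145 and 139 FPKM in UBP13oe, against 77.2 and 79.8 FPKM in CRY2oe, a log2 fold change of 0.85 ± 0.06 (adjusted p = 5.65e-05). Among the synthesis genes, CPD had 164 and 159.5 FPKM in UBP13oe, against 243 and 237 FPKM in CRY2oe and fell by 0.57 (adjusted p = 1.43e-04), while BR6OX1 and DWF4 rose, by 1.08 and 0.46. DWF1 was marked as a failed estimate in both CRY2oe libraries and was not compared. Of 23 gibberellin genes, 8 were higher and 6 lower, and leaving out any of the 4 libraries left 3 to 5 higher and 4 to 6 lower. RGL1, a DELLA repressor, had 11.3 and 11.1 FPKM in UBP13oe, against 4.68 and 5.28 FPKM in CRY2oe, a log2 fold change of 1.03 ± 0.07 (adjusted p = 3.80e-05), and RGA, another, rose by 0.28. GASA1, a gibberellin-regulated gene, had 1139.5 and 1145 FPKM in UBP13oe, against 1826 and 1963 FPKM in CRY2oe and fell by 0.73 (adjusted p = 0.00342).

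Of 24 tested root markers, 11 were called higher and 1 lower at a median of 0.30, with the same counts after rescaling and without each of the 4 libraries in turn. The summed level of the list was 819 and 790.0 FPKM in UBP13oe, against 386 and 418 FPKM in CRY2oe. Among those that rose were genes of the Casparian strip, the lignin band of the endodermis. CASP1, a membrane scaffold of the strip, had 172 and 152 FPKM in UBP13oe, against 71.8 and 78.7 FPKM in CRY2oe, a log2 fold change of 1.09 ± 0.07 (adjusted p = 3.42e-05). ESB1, which is needed to build the strip, had 164 and 160.5 FPKM in UBP13oe, against 63.7 and 68.9 FPKM in CRY2oe and 1.28 ± 0.05 (adjusted p = 4.60e-06) on the log2 scale. Both UBP13oe libraries stood above both CRY2oe libraries in these genes, and CASP1 and ESB1 overlap another locus. CASP2, the peroxidase gene PER64 and MYB36, the master regulator of these genes, also rose, at 1.06, 0.99 and 0.48.

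Markers of other root tissues did not all follow. Root-hair genes were not called, with RHD6 at -0.36, EXPA7 at -0.13 and COBL9 at -0.04 (adjusted p = 0.135, 0.724 and 0.855). Of the stem-cell genes, PLT1 had 1.02 and 0.743 FPKM in UBP13oe, against 1.89 and 1.98 FPKM in CRY2oe and fell by 0.65 (adjusted p = 0.00274), and WOX5 and PLT2 were not called, at -0.46 and -0.34 (adjusted p = 0.0990 and 0.166). In whole seedlings, fewer cells of a type and less RNA per cell cannot be told apart, and the share of root in each sample was not measured. The part of the root markers in the iron, nitrate and cytokinin results that follow was not tested.

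Of 26 tested iron genes, 11 were higher and 6 lower at a median of 0.05, with 9 and 8 after rescaling. The names IMA1, IMA2 and IMA3 did not resolve to a single gene, so these counts leave them out. The members stood on both sides. Beside IRT1, the root ferric reductase gene FRO2 had 1.97 and 3.92 FPKM in UBP13oe, against 0.712 and 0.686 FPKM in CRY2oe, a log2 fold change of 1.17 ± 0.20 (adjusted p = 0.00286). The bHLH regulator genes bHLH38, bHLH39 and bHLH101 rose by 1.24, 1.12 and 0.92 (adjusted p = 7.80e-04, 0.00894 and 0.00418). FIT, their partner, had 33.96 and 31.9 FPKM in UBP13oe, against 19.2 and 21.6 FPKM in CRY2oe and was called (adjusted p = 0.0441), but not after rescaling (adjusted p = 0.0740). NAS1, which makes the chelator nicotianamine, had 12.53 and 12.1 FPKM in UBP13oe, against 5.26 and 4.26 FPKM in CRY2oe and 1.21 ± 0.11 (adjusted p = 1.77e-04) on the log2 scale, and OPT3, a phloem iron transporter, had 37.1 and 44.3 FPKM in UBP13oe, against 22.1 and 20.6 FPKM in CRY2oe and 0.89 ± 0.09 (adjusted p = 2.82e-04). In all of these both UBP13oe libraries were higher.

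The ferritin genes, for iron storage, were lower. FER1, the ferritin gene that rises with iron, had 169.8 and 113 FPKM in UBP13oe, against 434 and 473 FPKM in CRY2oe, a log2 fold change of -1.70 ± 0.18 (adjusted p = 2.89e-04). FER2, FER3 and FER4 fell by 0.57, 0.28 and 0.34 (adjusted p = 0.0135, 0.0301 and 0.00821). Both UBP13oe libraries were below both CRY2oe libraries in all 4 ferritin genes, and FER1 overlaps another locus. The other genes called lower were FRO3, of the ferric reductase oxidase family, with 20.2 and 22.2 FPKM in UBP13oe, against 30.3 and 30.5 FPKM in CRY2oe and -0.50 ± 0.06 (adjusted p = 4.32e-04), and YSL1, a transporter of metal chelates, at -0.33. Without CRY2oe replicate 2 or UBP13oe replicate 2, 3 iron genes were called lower in place of 6.

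Cytokinin response genes had a median of 0.67, against 0.08 over all genes. Type-A ARRs are rapidly induced by cytokinin and dampen its signal, and CKX enzymes degrade it. Of 11 tested members, 8 were higher and 0 lower, with 7 and 0 after rescaling and 9 and 0 at an unadjusted p under 0.05. ARR6 had 15.8 and 16.4 FPKM in UBP13oe, against 5.75 and 5.49 FPKM in CRY2oe, a log2 fold change of 1.37 ± 0.09 (adjusted p = 2.99e-05). ARR7 had 3.64 and 4.56 FPKM in UBP13oe, against 1.09 and 0.780 FPKM in CRY2oe and 1.40 ± 0.15 (adjusted p = 3.15e-04) on the log2 scale, and ARR5 had 17.5 and 16.2 FPKM in UBP13oe, against 7.22 and 7.40 FPKM in CRY2oe and 1.101 ± 0.07 (adjusted p = 2.36e-05). Both UBP13oe libraries lay above both CRY2oe libraries in each. ARR4, ARR8 and ARR9 rose by 1.08, 0.67 and 0.47. ARR3 had 1.45 and 1.04 FPKM in UBP13oe, against 2.12 and 1.36 FPKM in CRY2oe, libraries that overlapped between the genotypes, and no call (adjusted p = 0.466).

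**Figure D5:**
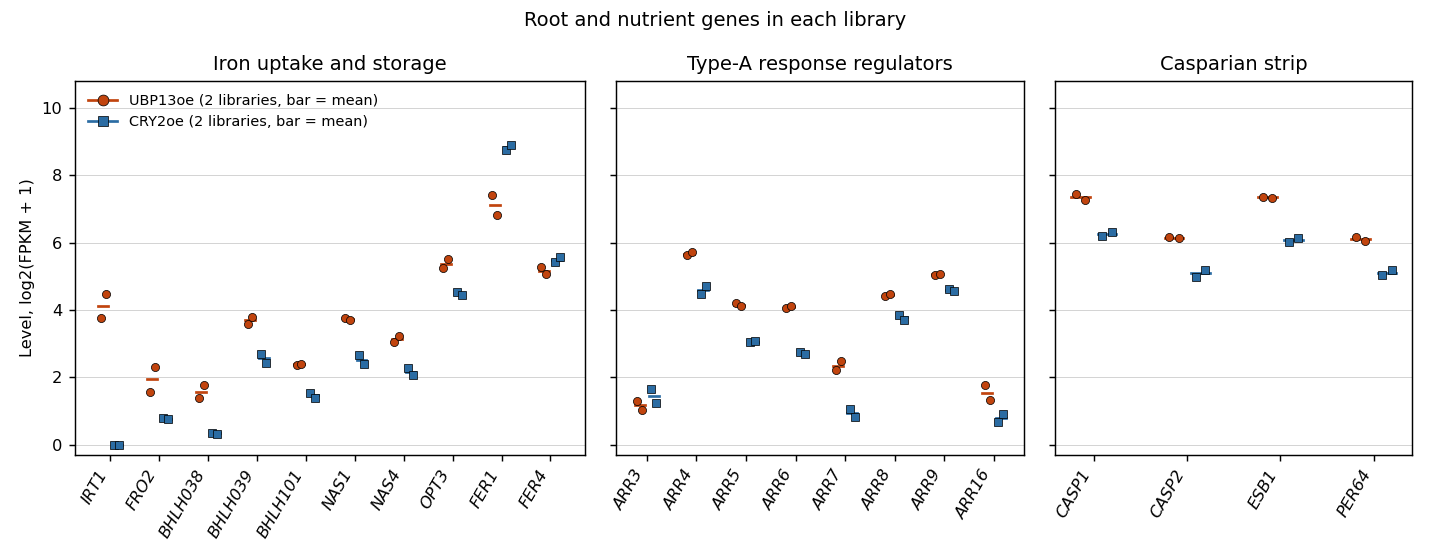
Levels of iron genes, of the type-A response regulators tested and of Casparian strip genes, as log2(FPKM + 1), in each library, with a bar at each mean. All genes drawn but FER1, FER4 and ARR3 stand higher in UBP13oe, and IRT1 is listed at 0 in both CRY2oe libraries.

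Nitrate and sulfate genes were 9 of 15 higher and 2 lower at a median of 0.45, and 5 were higher without UBP13oe replicate 2. NRT1.1, a nitrate transporter and sensor, had 194 and 203 FPKM in UBP13oe, against 87.3 and 84.4 FPKM in CRY2oe, a log2 fold change of 1.197 ± 0.05 (adjusted p = 6.37e-06). The nitrate reductase genes went the other way: NIA1 had 140.1 and 149 FPKM in UBP13oe, against 352 and 407 FPKM in CRY2oe and -1.39 ± 0.09 (adjusted p = 3.78e-05) on the log2 scale, and NIA2 fell by 0.34 (adjusted p = 0.0133). NRT2.1, another nitrate transporter gene, was not called, at 0.19 (adjusted p = 0.419), and the nitrite reductase gene NIR1 rose by 0.26. For sulfate, the transporter genes SULTR2;1 and SULTR1;2 rose by 0.82 and 0.71, and the reductase gene APR1 by 0.67 (adjusted p = 1.15e-04, 0.0130 and 6.61e-04).

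Among cell cycle genes, 23 of 47 were higher and 3 lower at a median of 0.31. After rescaling 17 were higher and 4 lower, and 14 were higher without CRY2oe replicate 2. Leaving out any of the 4 libraries left 1 lower. CDKB2;1, a kinase of the G2 to M transition, had 29.9 and 31.9 FPKM in UBP13oe, against 17.601 and 17.41 FPKM in CRY2oe, a log2 fold change of 0.78 ± 0.07 (adjusted p = 1.36e-04). KN, the syntaxin of the forming cell plate, had 46.2 and 50.7 FPKM in UBP13oe, against 26.8 and 21.7 FPKM in CRY2oe and 0.98 ± 0.11 (adjusted p = 3.21e-04) on the log2 scale. CYCB1;4, a mitotic cyclin, had 17.1 and 17.7 FPKM in UBP13oe, against 8.98 and 7.32 FPKM in CRY2oe and 1.01 ± 0.12 (adjusted p = 4.69e-04). Both UBP13oe libraries were above both CRY2oe libraries in all 3. CYCD3;2 was among those lower, with 26.8 and 25.7 FPKM in UBP13oe, against 34.1 and 36.3 FPKM in CRY2oe and -0.41 ± 0.06 (adjusted p = 0.00118).

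Among clock genes, 11 of 27 were called lower and 2 higher, at a median of -0.18, with 14 and 1 after rescaling. Leaving out any of the 4 libraries left 8 to 11 lower and 0 or 1 higher. The clock couples morning genes such as LHY to evening genes such as TOC1, and an evening element, AAAATATCT, is the textbook site of the morning proteins. The windows of 3 genes that fell and hold it are printed here, with the element, in either orientation, in capitals.
RVE7 (chr1:6308194-6308493, minus strand): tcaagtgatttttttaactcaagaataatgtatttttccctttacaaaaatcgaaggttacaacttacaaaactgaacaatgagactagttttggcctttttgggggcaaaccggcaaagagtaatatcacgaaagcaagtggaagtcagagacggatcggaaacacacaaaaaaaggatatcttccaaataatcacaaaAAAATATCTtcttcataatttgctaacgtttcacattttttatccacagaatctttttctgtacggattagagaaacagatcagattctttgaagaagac
TOC1 (chr5:24674713-24675012, plus strand): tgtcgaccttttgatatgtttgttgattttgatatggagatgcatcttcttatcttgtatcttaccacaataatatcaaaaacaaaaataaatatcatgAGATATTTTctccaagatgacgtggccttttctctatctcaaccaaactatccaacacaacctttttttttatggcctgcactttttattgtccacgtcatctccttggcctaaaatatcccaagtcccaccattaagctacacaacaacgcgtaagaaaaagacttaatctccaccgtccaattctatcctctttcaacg
PRR5 (chr5:8358497-8358796, minus strand): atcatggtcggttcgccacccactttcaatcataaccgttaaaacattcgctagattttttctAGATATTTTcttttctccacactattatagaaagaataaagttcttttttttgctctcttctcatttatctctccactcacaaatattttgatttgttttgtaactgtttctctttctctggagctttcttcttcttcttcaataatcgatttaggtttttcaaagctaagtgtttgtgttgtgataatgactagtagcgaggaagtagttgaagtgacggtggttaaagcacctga
The element was found on either strand in 5 of the 11 windows of clock genes called lower and in 0 of 2 called higher, against 2.82% of all windows. The G-box was also in 5 of the 11 and in 1 of the 2. The element lay 50 bases before the RefSeq start in RVE7, 151 in TOC1 and 187 in PRR5. The whole PRR5 window lies inside the PRR5 gene model of the files, which runs from 8355951 to 8358873. The element is therefore not upstream of that model.

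PRR7, a repressor of morning genes, had 27.8 and 31.4 FPKM in UBP13oe, against 54.4 and 52.7 FPKM in CRY2oe, a log2 fold change of -0.84 ± 0.07 (adjusted p = 9.67e-05). RVE7 had 19.4 and 18.6 FPKM in UBP13oe, against 32.4 and 31.2 FPKM in CRY2oe and -0.72 ± 0.05 (adjusted p = 3.78e-05) on the log2 scale. PRR5 had 15.2 and 15.1 FPKM in UBP13oe, against 23.2 and 22.8 FPKM in CRY2oe and -0.57 ± 0.07 (adjusted p = 5.78e-04). TOC1, with 74.1 and 76.6 FPKM in UBP13oe, against 96.4 and 99.9 FPKM in CRY2oe, was lower as well (-0.38 ± 0.05 (adjusted p = 5.64e-04)). These genes peak at different times of day in light-dark cycles, and the morning gene LHY fell by 0.49 (adjusted p = 0.00562) while its partner CCA1 at -0.03 was not called (adjusted p = 0.734). RVE2 rose, with 222 and 223 FPKM in UBP13oe, against 138 and 163 FPKM in CRY2oe and 0.56 ± 0.14 (adjusted p = 0.0133). The sources used here do not give the time of harvest.

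Flowering genes moved in both directions, with 4 of 20 higher and 4 lower. FLC, the repressor of flowering, had 41.8 and 41.5 FPKM in UBP13oe, against 19.9 and 19.0 FPKM in CRY2oe, a log2 fold change of 1.06 ± 0.06 (adjusted p = 1.86e-05). SNZ, another repressor, had 32.9 and 32.7 FPKM in UBP13oe, against 16.3 and 15.5 FPKM in CRY2oe and 1.002 ± 0.07 (adjusted p = 3.78e-05) on the log2 scale, and TOE1, of the same AP2 group, rose by 0.41. The repressors TEM2 and SVP were lower, with 52.0 and 48.2 FPKM in UBP13oe, against 98.8 and 94.9 FPKM in CRY2oe for TEM2, 28.0 and 31.1 FPKM in UBP13oe, against 48.4 and 46.7 FPKM in CRY2oe for SVP and log2 fold changes of -0.94 and -0.67. SOC1, an activator, had 3.41 and 4.48 FPKM in UBP13oe, against 6.29 and 5.72 FPKM in CRY2oe and fell by 0.51 (adjusted p = 0.0116). So repressors stood on both sides. CO at 0.16 was not called (adjusted p = 0.457), and FT was below the filter.

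Of 22 tested sugar-starvation and trehalose phosphate genes, 10 were lower and 4 higher at a median of -0.25, with 13 and 4 after rescaling and 8 to 12 lower without single libraries. ASN1, the asparagine synthetase gene induced in the dark and by lack of sugar, had 392 and 352 FPKM in UBP13oe, against 1059 and 1025 FPKM in CRY2oe, a log2 fold change of -1.49 ± 0.07 (adjusted p = 9.21e-06). SEN1 had 1026 and 981 FPKM in UBP13oe, against 2536 and 2267 FPKM in CRY2oe and -1.26 ± 0.08 (adjusted p = 3.56e-05) on the log2 scale. DIN4, of branched-chain amino acid breakdown, had 91.5 and 92.3 FPKM in UBP13oe, against 158 and 156 FPKM in CRY2oe and -0.77 ± 0.05 (adjusted p = 2.36e-05), and overlaps another locus. In these 3 both UBP13oe libraries were below both CRY2oe libraries. The vacuolar sugar transporter genes SWEET16 and SWEET17 rose, by 0.58 and 0.996 (adjusted p = 6.85e-05 and 9.84e-04).

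Of 26 tested jasmonate genes 12 were higher and 0 lower, at a median of 0.34, with 9 and 1 after rescaling and 15 and 1 at an unadjusted p under 0.05. VSP2, a storage protein induced by jasmonate, had 3.62 and 4.52 FPKM in UBP13oe, against 0.724 and 0.715 FPKM in CRY2oe, a log2 fold change of 1.55 ± 0.14 (adjusted p = 1.58e-04). AOS, of jasmonate synthesis, had 27.8 and 31.1 FPKM in UBP13oe, against 18.3 and 16.6 FPKM in CRY2oe and 0.72 ± 0.09 (adjusted p = 5.55e-04) on the log2 scale, and the transcription factor gene MYC4 had 15.5 and 17.2 FPKM in UBP13oe, against 9.21 and 9.58 FPKM in CRY2oe and 0.74 ± 0.08 (adjusted p = 4.13e-04). The genotypes did not overlap in any of these. LOX2 was low, with 0.953 and 1.77 FPKM in UBP13oe, against 0.111 and 0.0547 FPKM in CRY2oe. Among 16 salicylate defence genes 4 were higher, a share close to that of all genes, and 0 lower (6 and 1 at an unadjusted p under 0.05), led by EDS1 with 13.6 and 13.7 FPKM in UBP13oe, against 9.60 and 10.3 FPKM in CRY2oe and 0.42 ± 0.06 (adjusted p = 8.95e-04). Of 18 glucosinolate genes, 9 were higher and 1 lower, and 3 were higher without UBP13oe replicate 2, 4 without CRY2oe replicate 2 and 5 without UBP13oe replicate 1. The myrosinase genes TGG2 and TGG1 differed in sign, with 38.3 and 27.8 FPKM in UBP13oe, against 5.98 and 6.12 FPKM in CRY2oe for TGG2, 781 and 814 FPKM in UBP13oe, against 1088 and 1052 FPKM in CRY2oe for TGG1, and log2 fold changes of 2.26 and -0.42. Of 13 heat shock genes 9 were higher and 0 lower (10 and 0 at an unadjusted p under 0.05), and HSP101, a disaggregase gene that overlaps another locus, had 6.42 and 6.29 FPKM in UBP13oe, against 3.73 and 3.54 FPKM in CRY2oe and 0.67 ± 0.07 (adjusted p = 3.66e-04).

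Cold and abscisic acid genes were divided. Of 20 cold-response genes, 5 were higher and 6 lower, with 1 lower without UBP13oe replicate 1 and 2 lower without either CRY2oe library. The dehydrin gene ERD10 had 131 and 133 FPKM in UBP13oe, against 71.5 and 69.3 FPKM in CRY2oe, a log2 fold change of 0.89 ± 0.04 (adjusted p = 1.21e-05), and ERD14 and COR47 rose by 0.77 and 0.47. COR413IM1, of the chloroplast inner envelope, had 193 and 192 FPKM in UBP13oe, against 301 and 294 FPKM in CRY2oe and -0.63 ± 0.09 (adjusted p = 0.00131) on the log2 scale. RCI2A and RCI2B, small membrane protein genes, rose by 0.60 and 0.46, and the other lower calls were CBF1, COR15B, KIN1, KIN2 and LTI78, at -0.85 to -0.45. Of 22 abscisic acid genes, 3 were higher and 6 lower, and 3 were lower without either UBP13oe library or CRY2oe replicate 1. RD26 and ABI5 fell, by 0.76 and 0.80 (adjusted p = 2.64e-04 and 3.76e-04), and RD22 rose, with 66.8 and 71.6 FPKM in UBP13oe, against 27.8 and 33.0 FPKM in CRY2oe and 1.16 ± 0.19 (adjusted p = 0.00226).

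The summed level of the seed marker list was 42.1 and 30.7 FPKM in UBP13oe, against 109.9 and 56.0 FPKM in CRY2oe. Of 17 tested, 1 was higher and 3 lower, at a median of -0.27, and 5 were lower without CRY2oe replicate 2. EM1 had 0.279 and 0.330 FPKM in UBP13oe, against 1.32 and 1.09 FPKM in CRY2oe, a log2 fold change of -0.76 ± 0.14 (adjusted p = 0.00344), and the oleosin gene OLEO3 rose, with 8.66 and 8.72 FPKM in UBP13oe, against 3.53 and 3.62 FPKM in CRY2oe and 1.08 ± 0.22 (adjusted p = 0.00676). Both CRY2oe libraries differed widely from each other in LEA18, as above, and in LEA4-1, with 4.93 and 4.399 FPKM in UBP13oe, against 13.6 and 7.36 FPKM in CRY2oe. LEA18 is itself a member of the list, and 13 of the 17 were not called.

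Of 14 photoreceptor genes, 4 were called higher and 5 lower, CRY1 and CRY2 included, with 1 and 7 after rescaling. Leaving out any of the 4 libraries left 1 or 2 higher and 2 to 4 lower. FKF1, a blue-light receptor of the clock, had 11.95 and 12.7 FPKM in UBP13oe, against 19.1 and 18.8 FPKM in CRY2oe, a log2 fold change of -0.58 ± 0.07 (adjusted p = 7.29e-04). The phototropin gene PHOT2, which overlaps another locus, had 90.8 and 91.4 FPKM in UBP13oe, against 68.7 and 72.7 FPKM in CRY2oe and 0.36 ± 0.06 (adjusted p = 0.00188) on the log2 scale, and PHYA fell by 0.22 (adjusted p = 0.0369). PHYC and PHYE were not called, at 0.06 and 0.02 (adjusted p = 0.493 and 0.827).

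Of the LRB genes, whose proteins target cryptochromes for degradation, LRB1 and LRB2 were lower in UBP13oe. In this list of cryptochrome inhibitors, partners and turnover genes 3 members were tested and 1 was not. The names BIC1, BIC2, PPK1, PPK2, PPK3 and PPK4 did not resolve to a single gene and were not examined. LRB1 had 55.0 and 55.0 FPKM in UBP13oe, against 75.4 and 74.6 FPKM in CRY2oe, a log2 fold change of -0.44 ± 0.06 (adjusted p = 6.54e-04). LRB2 had 71.5 and 70.4 FPKM in UBP13oe, against 91.0 and 94.9 FPKM in CRY2oe and -0.38 ± 0.06 (adjusted p = 0.00228) on the log2 scale. The libraries did not overlap in either gene. CIB1, a partner of CRY2, had 22.2 and 15.9 FPKM in UBP13oe, against 14.7 and 10.3 FPKM in CRY2oe, with replicates far apart in both genotypes, and its call (adjusted p = 0.0491) was lost on rescaling. Among the light signalling regulators, 8 of 30 were higher and 3 lower, shares close to those of all genes, with 8 and 6 after rescaling. COP1, the ubiquitin ligase, and HY5, its main target, were not called, at 0.10 and 0.01 (adjusted p = 0.271 and 0.948), while SPA1, the partner of COP1, had 32.9 and 33.7 FPKM in UBP13oe, against 27.5 and 28.2 FPKM in CRY2oe and 0.25 ± 0.05 (adjusted p = 0.00412). BBX20, a partner of HY5, had 10.6 and 9.34 FPKM in UBP13oe, against 21.9 and 26.1 FPKM in CRY2oe and -1.19 ± 0.09 (adjusted p = 6.36e-05), and BBX31 rose by 0.67 (adjusted p = 0.00192).

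Within the UBP deubiquitinase family, 4 of 28 genes were higher and 1 lower, with 3 and 4 after rescaling, when UBP4, UBP5 and UBP19 were also called lower. Those higher were UBP13 and UBP12, given above, then UBP26 with 10.6 and 10.78 FPKM in UBP13oe, against 8.76 and 7.88 FPKM in CRY2oe and 0.33 ± 0.07 (adjusted p = 0.00754), and UBP2, whose rise of 0.23 was not called after rescaling. UCH1, which overlaps another locus, fell by 0.40 (adjusted p = 0.00676). The other 23 tested members lay between -0.16 and 0.21 on the log2 scale.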

How the data were processed

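The authors' deposited FPKM values, 1 table of 33557 genes per library, were used as given per the file headers. The submitters' processing notes name STAR, without a version, Cufflinks 2.1.1 and the genome TAIR10. RNA was poly(A)-selected for a directional kit, per the labels' protocols, and use of strand in counting is unknown. Entries marked as failed or skipped (15 at 10 loci) were set missing.

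A limma-trend fit (limma 3.58.1, R 4.3.3, Python 3.11.15, pandas 2.3.3) of log2(FPKM + 1), a scale that shrinks the change of low genes, used all 10 libraries and a mean per genotype, with 5 residual and 3.15 prior degrees of freedom. P-values are two-sided and adjusted by Benjamini-Hochberg over 19956 genes, with calls at 0.05, and ± is the standard error. Count tests need counts and were not run. In data simulated for this comparison (19947 genes) 63 of 67 changes of 0.5, 67 of 67 of 1 and 66 of 66 of 2 on the log2 scale were recovered, with 10 false calls in 206. The changes were placed only in a small sample of genes above a moderate mean level, with normal noise. Recovery in low genes, or with as many changes as were called here, was therefore not measured.

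Depth came from whole-fragment steps in low values of 2919 single-exon genes. In each library 147 to 225 values were low enough to use, and 96.2% to 99.1% of these came out whole within 0.1 fragment. The depth was chosen for a high share of whole values, so that share is no check on the estimate. Estimated depth ranged from 16.2 to 31.8 M fragments. Its floors cover counting error only.

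The gene lists (32) and the comparison were chosen with earlier results of these data known. Of 907 names 33 did not resolve to a single gene and were dropped, and 8 wrong matches were corrected. The text names CRY1, CRY2, UBP12 and UBP13 with 5 neighbours on each side of CRY2 and UBP13, the 12 largest called rises and falls (5 FPKM in the higher genotype, 300 bp, no overlap of libraries), the 3 largest in FPKM, and list members led by the smallest adjusted p. Positions count from 1 on TAIR10, and promoter windows are RefSeq's on TAIR10.1, where 10573 of 32810 matched genes have the same start and end. The alternatives tried were a pseudocount of 0.1, 2 filters, 2 rescalings, a replicate block, only 4 libraries, no variance trend, failed entries as listed, and each library left out, after which the lone library of a genotype is assumed to vary like the others. The values of 1 root marker are not reported here.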

Additional observations from a re-analysis of the deposited data

How the results depend on the processing

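The split between directions was the part most dependent on processing: median-of-ratios rescaling, whose factors were 1.04 and 1.06 in UBP13oe and 0.986 and 0.987 in CRY2oe, raised the lower calls to 3207. The total stayed between 5984 and 7119 under the alternatives other than leaving out single libraries, among them 6930 with a pseudocount of 0.1, 6861 with no filter, 5984 with a mean of 5 FPKM or more and 6599 with nuclear genes rescaled to the nuclear sum. The last leaves out plastid genes and gives no value for the plastid lists. In it 3835 genes were called higher and 2764 lower, so that 58.1% of calls were higher. Leaving out a library gave 4359 to 7440 calls, 3156 to 5310 higher and 1195 to 2130 lower. Without UBP13oe replicate 2 the calls were 4359 and without CRY2oe replicate 2 the lower calls were 1195, and the cause was not tested beyond the smaller number of libraries. With a replicate block 6903 genes were called, 4949 higher and 1954 lower. The replicate numbers showed no strong shared deviation: same-numbered libraries of UBP13oe and CRY2oe correlated at 0.0393 in their deviations. Of 10 pairs of genotypes 1 exceeded 0.1, cry2-1 with UBP13oe at 0.146. Such correlations cannot show whether same-numbered libraries were handled together. The named genes were mostly chosen for large changes or small adjusted p, so their tally does not stand for all genes. Over all genes, rescaling kept 3473 of the 5077 higher calls and 1981 of the 1981 lower calls. Of 216 named genes tested, 207 of them called, no called direction was reversed. Rescaling took 7 of their calls away, leaving out CRY2oe replicate 2 or either UBP13oe library took 10 each, and the replicate block 3. Low genes, short loci and near-identical copies limit single values at these depths. Of 7058 called genes, 1057 overlap another locus. BETA-TIP, BCAT-2, the CDKB2 gene described above, CIB1, FLU and RCI2A are among them, though not marked above.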

Other observations

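The other genotypes entered no comparison here, and their levels of the genes described above are given as values. CHS had 45.1 and 61.3 FPKM in ubp12ubp13, 1.297 and 1.38 FPKM in cry2-1 and 9.004 and 6.14 FPKM in WT. FLS1 had 11.97 and 13.9 FPKM in ubp12ubp13, 0.788 and 1.02 FPKM in cry2-1 and 4.27 and 2.26 FPKM in WT. IRT1 had 64.8 and 55.6 FPKM in ubp12ubp13, 0 and 0 FPKM in cry2-1 and 0.183 and 0.151 FPKM in WT. BCAT-2 had 25.9 and 27.9 FPKM in ubp12ubp13, 298 and 315 FPKM in cry2-1 and 351 and 409 FPKM in WT. RBCL had 1259 and 1122 FPKM in ubp12ubp13, 873 and 905 FPKM in cry2-1 and 511 and 561 FPKM in WT.

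UBP13 RNA was 24.2 and 23.6 FPKM in ubp12ubp13, 36.9 and 36.0 FPKM in cry2-1 and 27.1 and 28.3 FPKM in WT, so RNA of the gene was detected in the line labelled ubp12ubp13. CRY2 RNA was 84.0 and 87.7 FPKM in ubp12ubp13, 0 and 0.0187 FPKM in cry2-1 and 109.8 and 120.0 FPKM in WT. UBP12 had 397 FPKM in ubp12ubp13 replicate 1, with a failed estimate in replicate 2, 48.2 and 46.5 FPKM in cry2-1 and 35.0 and 34.8 FPKM in WT.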
